A study of Mus musculus with 15 samples.

Results

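RNA of mouse skin tumour cells with a high level of integrin alpha 6 (a6-high) was compared with RNA of tumour cells with a low level (a6-low), both sorted as negative for CD34. All libraries titled a6High/CD34- and all titled a6Low/CD34- were taken, 10 of the 15 libraries of the series. The remaining 5 are CD34-positive a6-high libraries and were not compared. The a6-high libraries and the a6-low libraries each comprised 2 from SIRT6 KO tumours (K14-cre; SIRT6 flox/flox, called KO) and 3 from WT tumours. Libraries of 1 genotype and 1 replica number were treated as a pair, which gave the pairs KO 1, KO 2, WT 1, WT 2 and WT 3. All animals were C57BL/6 and had been treated for more than 24 weeks with DMBA, which mutates DNA, and TPA, a phorbol ester and tumour promoter. The K14 promoter drives Cre in keratinocytes, so other cells of a KO tumour keep Sirt6, which encodes a histone deacetylase. The labels give no age, and whether each library of a group is from an animal of its own is not stated. The libraries held 10.08 M to 28.62 M reads assigned to genes (M, 1e6), and 15885 to 19380 genes were detected.

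Integrin alpha 6 pairs with integrin beta 4 in hemidesmosomes, the junctions that hold basal keratinocytes on laminin of the basement membrane. In skin the cells on this membrane divide, and cells that leave it stop dividing, express other keratins and build the cornified barrier. Papillomas of chemically treated mouse skin largely keep this order, with cycling cells next to the stroma and differentiating cells further inside. Genes of cell division, adhesion and differentiation were therefore described as lists, with all genes tested as the background.

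Itga6 (ENSMUSG00000027111), the gene of the sort marker, was read first in every library. It had 379, 360, 395, 462 and 403 CPM (counts per 1e6 gene counts) in the a6-high libraries, in the order KO 1, KO 2, WT 1, WT 2 and WT 3 that is used throughout. The paired a6-low libraries had 68.0, 446, 472, 94.7 and 174 CPM. The a6-low libraries of KO 2 and WT 1 thus held as much Itga6 RNA as a6-high libraries, against the label, while those of KO 1, WT 2 and WT 3 lay below every a6-high library. Over the 5 pairs Itga6 differed by a log2 fold change of 1.08 ± 0.47 SE (a6-high over a6-low, edgeR, adjusted p = 0.345). Sorting used the protein on the cell surface, which RNA does not measure.

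Other labels were read the same way. Cd34 (ENSMUSG00000016494) averaged 16.1 ± 4.7 CPM in a6-high and 19.7 ± 14.4 CPM in a6-low libraries (SD, n = 5 each), with a log2 fold change of 0.02 (adjusted p = 0.992). Sirt6 (ENSMUSG00000034748) had 8.53 and 6.89 CPM in KO and 4.46 to 9.16 CPM in WT a6-high libraries, and 7.25 and 7.35 CPM in KO and 7.33 to 10.6 CPM in WT a6-low libraries. These ranges overlapped between genotypes. Counts over the whole gene need not show the deletion of single exons, and they leave the genotype label unchecked, so KO stands for the libraries labelled so. The Y-linked gene Ddx3y was at 51.9 CPM in the a6-high and 75.0 CPM in the a6-low library of KO 2 and at most 0.223 CPM elsewhere, so both libraries of that pair held Y-linked RNA that the others lacked. Krt14 and Krt5, keratin genes of keratinocytes, were abundant in all 10 libraries, at 43290 to 75370 CPM and 7172 to 13530 CPM in a6-high and at 32130 to 53240 CPM and 2443 to 13160 CPM in a6-low libraries.

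The 5 pairs did not move alike. Over 9741 genes with an average log2 CPM of at least 2, the a6-high minus a6-low differences of KO 1 and WT 2 had a Pearson correlation of 0.77, and those of KO 2 and WT 1 one of 0.56. WT 3 lay between these groups, with 0.47 to KO 1, 0.43 to WT 2, 0.36 to WT 1 and 0.22 to KO 2. The values across groups were 0.10 for KO 1 with KO 2, -0.07 for KO 1 with WT 1, -0.05 for KO 2 with WT 2 and -0.24 for WT 1 with WT 2. Each value is across genes, which are not independent, and no pair shares a library with another. KO 1 and WT 2, whose a6-low libraries had the lowest Itga6 levels, thus resembled each other most, and KO 2 and WT 1, whose a6-low libraries were at the a6-high level, formed the other group.

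**Figure D1:**
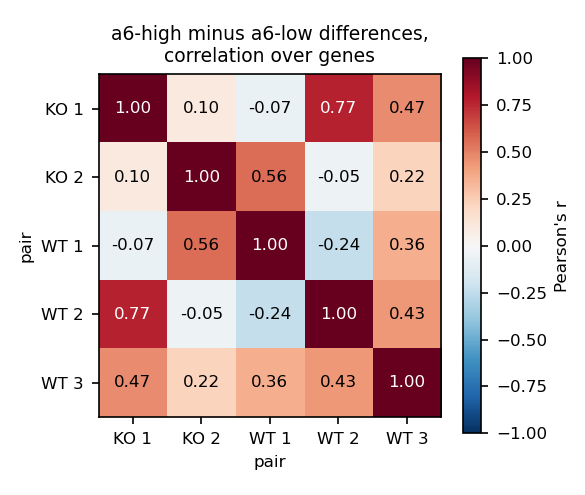
Pearson correlation, over 9741 genes, of the a6-high minus a6-low differences in log2 CPM between each 2 of the 5 pairs. KO 1 and WT 2 form 1 block (0.77) and KO 2 and WT 1 another (0.56), with WT 3 positive to all (0.22 to 0.47).

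In a6-high cells, genes of mitosis and DNA replication were higher in most pairs, with list medians of 0.85 and 0.72 on the log2 scale. Genes of tight junctions, barrier lipids and keratinocyte fate factors were mostly lower, with medians of -0.75, -0.51 and -0.45, and single genes such as Defb6, Serpinb3a, Cldn1 and Mxd1 were lower in every pair. How many of these differences passed a test over all genes depended on the tool and on the libraries used. In all, 1 of 14084 tested passed an adjusted p of 0.05 in the paired edgeR fit of the 10 libraries, a share of 0.0071%, and it was lower in a6-high cells. At an unadjusted p under 0.05 stood 2063 genes (14.6%), and DESeq2 called 804 on the same libraries (5.71%), of which 378 were higher (2.68%) and 426 lower (3.02%). A further 11 genes lay just above the threshold, at adjusted p-values of 0.0529 to 0.0552, and 140 lay under 0.1, 58 higher and 82 lower. When the 5 CD34-positive libraries were added to the edgeR fit, which also changed the genes tested and moved the fitted fold changes somewhat, 192 of 14652 genes passed (1.31%), 82 higher (0.56%) and 110 lower (0.751%) in a6-high cells. In what follows, passing and adjusted p-values refer to edgeR with 10 or with all 15 libraries unless DESeq2 is named. All 192 had the same direction in the fit of 10 libraries, and 191 had 1 direction in all 5 pairs. Since the 15 libraries include these 10, that likeness was largely fixed by the selection and is no separate support for the calls. The median log2 fold change of the 192 was 0.93 among the higher and -1.11 among the lower genes. Of all genes tested, 1141 (8.1%) were higher and 989 (7.02%) lower in a6-high cells in every pair, while 125 (0.888%) and 129 (0.916%) did so without any overlap of the 5 a6-high and 5 a6-low libraries. These shares, and the 14.6% at an unadjusted p under 0.05, are the background for each list count below. The count of 1 was 0 without pair KO 1, WT 2 or WT 3, 4 without KO 2 and 3 without WT 1. With KO 2 and WT 1 both set aside, a choice made after their Itga6 values were seen, it was 723, with 393 higher and 330 lower.

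The gene that passed was Skint2 (ENSMUSG00000034359), of the Skint family of immunoglobulin-like membrane proteins, whose member Skint1 is needed for the gamma-delta T cells of mouse epidermis. It had 0.341, 0, 0, 0.288 and 0 CPM in a6-high libraries and 11.7, 0.125, 0.755, 8.71 and 0.514 CPM in a6-low libraries. Skint2 was lower in a6-high cells in all 5 pairs, with the a6-low levels of KO 1 and WT 2 far above the other 3. Its log2 fold change was -5.07 ± 0.44 SE (adjusted p = 0.0414, and 0.00588 in the fit of all 15 libraries). Over the alternative fits its adjusted p was 5.88e-12 (DESeq2) to 0.419 (no pair block), and it was above 0.05 without KO 1, WT 2 or WT 3. The values rest on 15 reads in the a6-high libraries and 427 in the a6-low libraries, 322 of them in KO 1 and 78 in WT 2. Its level may miss reads shared with near copies in the family, since multiply aligned reads stayed uncounted.

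**Figure D2:**
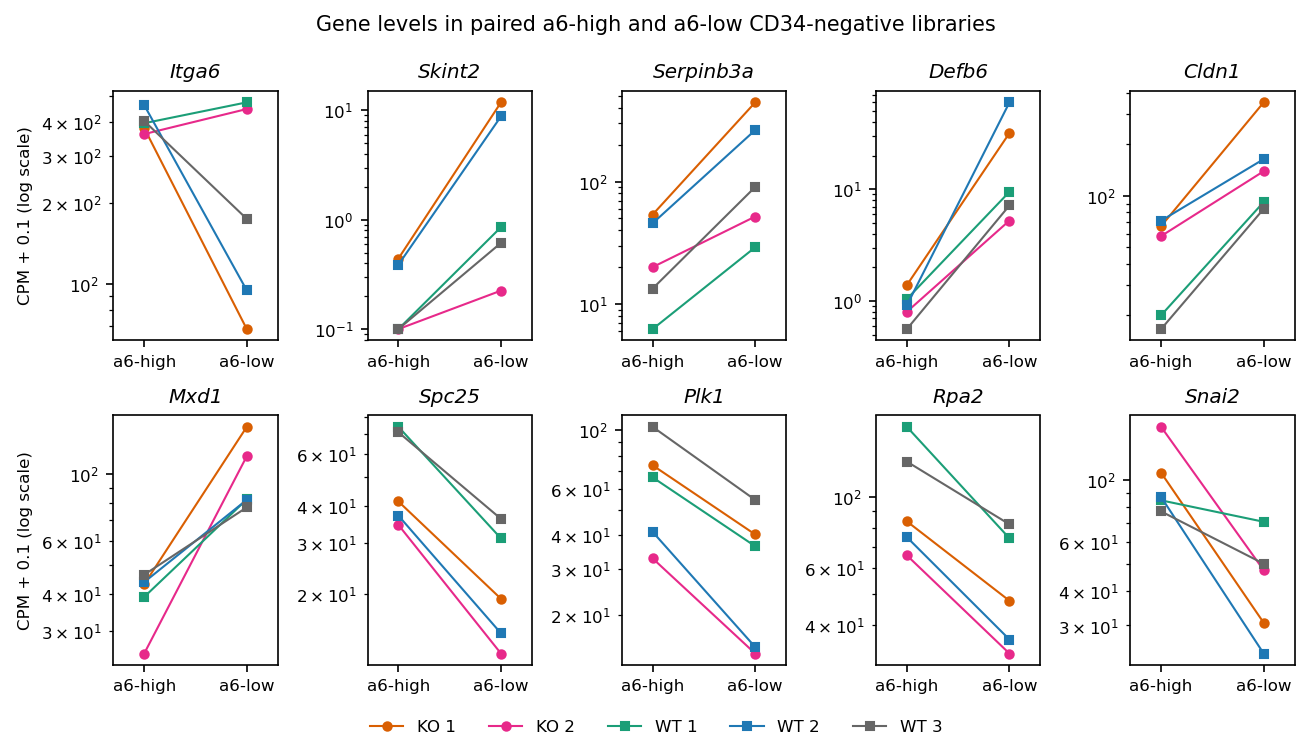
CPM plus 0.1, on a log scale, of 10 genes in the a6-high and the a6-low library of each pair, joined by a line (KO pairs circles, WT pairs squares). Itga6 is lower in a6-low cells of KO 1, WT 2 and WT 3 only, while the other 9 genes run in 1 direction in all 5 pairs.

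Of the 11 genes just above the threshold 7 were lower and 4 higher in a6-high cells, and 10 of the 11 passed in the fit of all 15 libraries. The lower ones included Defb6, which encodes an antimicrobial beta-defensin. It had 1.29, 0.702, 0.942, 0.815 and 0.461 CPM in a6-high libraries, against 31.7, 5.15, 9.39, 59.8 and 7.07 CPM in a6-low libraries. No a6-high library reached any a6-low library, and the log2 fold change was -4.24 ± 0.49 SE (adjusted p = 0.0529, and 0.00544 with all 15). Rhov, which encodes an atypical small GTPase, had 79.9, 58.6, 83.5, 80.2 and 83.4 CPM in a6-high libraries, against 303, 220, 149, 377 and 255 CPM in a6-low libraries. Its a6-high values lay close together, and the groups did not overlap (log2 -1.71 ± 0.21 SE, adjusted p = 0.0529, and 0.00544 with all 15). Gch1, the gene of the first enzyme of tetrahydrobiopterin synthesis, was at 13.4 to 26.3 CPM in a6-high and 37.3 to 71.9 CPM in a6-low libraries (log2 -1.46). Vim, which encodes the intermediate filament protein vimentin of mesenchymal cells, was low in all libraries, at 0.614 to 2.24 CPM in a6-high and 3.98 to 13.3 CPM in a6-low libraries (log2 -2.54). The glycerol kinase gene Gk had a log2 fold change of -1.24. Gch1, Gk, Rhov, and the mitotic kinase gene Pbk and the factor gene Tcf19 described with the cell cycle, were named after their values were seen.

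Genes of cell division had higher fitted levels in a6-high cells, most of them in every pair. Of 50 genes of mitosis all 50 had a higher fitted level, 31 of them in every pair (8.1% of all genes tested), with a median log2 fold change of 0.85 against -0.01 over all genes. Of 48 genes of DNA replication all 48 were higher, 36 of them in every pair, with a median of 0.72. In the fit of all 15 libraries 9 mitosis and 6 replication genes passed, 15 of the 82 higher calls, and 0 passed lower. In the edgeR fit of 10 libraries 0 of either list passed, while 36 mitosis and 38 replication genes had an unadjusted p under 0.05. DESeq2 on the same libraries called 30 mitosis and 27 replication genes, all higher. The medians of the mitosis list within a pair were 0.92, 0.61, 0.25, 1.65 and 0.66, and those of the replication list 0.82, 0.38, 0.40, 1.05 and 0.57. WT 2 had the largest and WT 1 or KO 2 the smallest difference, so the pairs with Itga6 at 1 level in both sorts also had more cell cycle RNA in the a6-high library. In bulk RNA, fewer cells of a kind and less RNA per cell cannot be told apart.

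Among kinetochore and spindle genes, Spc25, a subunit of the Ndc80 complex that links kinetochores to microtubules, had 41.3, 34.3, 74.1, 36.9 and 71.1 CPM in a6-high libraries. The paired a6-low libraries had 19.2, 12.5, 30.9, 14.6 and 36.0 CPM. It was higher in each pair by a similar factor, and WT 1 and WT 3 were high in both sorts (log2 1.23 ± 0.14 SE, adjusted p = 0.0529, and 0.0383 with all 15). Plk1, the polo-like kinase of mitotic entry and exit, had 73.4, 32.7, 66.1, 41.2 and 102 CPM in a6-high libraries, against 40.2, 14.3, 36.3, 15.1 and 54.3 CPM in a6-low libraries. It was higher in all 5 pairs (log2 1.05 ± 0.15 SE, adjusted p = 0.0757, and 0.0276 with all 15). Ccnb1, the cyclin B1 gene, was at 67.5 to 178 CPM in a6-high and 25.8 to 94.7 CPM in a6-low libraries (log2 0.99, adjusted p = 0.0767, and 0.0403 with all 15). Its kinase partner Cdk1 (log2 0.93), the cyclin A2 gene Ccna2 (1.23), the checkpoint gene Mad2l1 (0.77) and Pbk (1.05) passed in the fit of all 15 libraries, at adjusted p-values of 0.0404, 0.0471, 0.0446 and 0.0467. The kinetochore gene Cenpk, at log2 1.20, did not (adjusted p = 0.0584). Cdk1, Ccna2 and Mad2l1 were chosen after their values were seen.

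Replication genes showed differences of a similar size. Rpa2, a subunit of the protein that coats single-stranded DNA at forks, had 83.8, 65.7, 165, 74.8 and 128 CPM in a6-high libraries, against 47.5, 32.5, 74.2, 36.0 and 82.0 CPM in a6-low libraries (log2 0.94 ± 0.13 SE). It was higher in 5 of 5 pairs, with an adjusted p of 0.0757 and of 0.0446 with all 15 libraries. Mcm6, a subunit of the replicative helicase, was at 143 to 365 CPM in a6-high and 91.8 to 220 CPM in a6-low libraries (log2 0.88, adjusted p = 0.0794, and 0.0404 with all 15). The thymidine kinase gene Tk1 (log2 0.86) and the clamp loader gene Rfc5 (0.82) also passed with all 15 libraries, at adjusted p-values of 0.0439 and 0.0446. Rpa1 (0.83) and the clamp loader gene Rfc3 (0.80) did not, at 0.0594 and 0.0539. Tcf19, a gene induced at the G1 to S transition, had a log2 fold change of 0.98 (adjusted p = 0.0552, and 0.0319 with all 15).

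Division and differentiation genes are known to be controlled through different promoter sites, and some of their promoters are printed for that reason. CCAAT boxes bind the factor NF-Y and are frequent before mitotic genes, E2F sites serve S phase genes, and AP-1 sites serve genes of the cornified layer. The 150 bases before the start of 7 genes (RefSeq, GRCm38.p6) read as follows, 5′ to 3′ on the strand of the gene, with CCAAT boxes in capitals for Spc25, Plk1 and Ccnb1, E2F sites for Mcm6 and Rfc3, and AP-1 sites for Sbsn and Sprr1b:
Spc25: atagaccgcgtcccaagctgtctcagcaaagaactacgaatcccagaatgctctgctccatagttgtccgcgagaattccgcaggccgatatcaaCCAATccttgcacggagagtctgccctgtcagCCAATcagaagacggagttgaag
Plk1: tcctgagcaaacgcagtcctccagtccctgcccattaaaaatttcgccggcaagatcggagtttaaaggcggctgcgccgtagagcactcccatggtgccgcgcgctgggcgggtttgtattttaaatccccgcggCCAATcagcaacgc
Ccnb1: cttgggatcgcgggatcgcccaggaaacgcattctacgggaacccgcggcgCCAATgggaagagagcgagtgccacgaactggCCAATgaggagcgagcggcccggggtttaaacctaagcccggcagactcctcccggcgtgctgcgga
Mcm6: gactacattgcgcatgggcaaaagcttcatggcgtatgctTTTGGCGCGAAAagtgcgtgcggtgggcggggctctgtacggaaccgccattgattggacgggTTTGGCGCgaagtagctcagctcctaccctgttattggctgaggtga
Rfc3: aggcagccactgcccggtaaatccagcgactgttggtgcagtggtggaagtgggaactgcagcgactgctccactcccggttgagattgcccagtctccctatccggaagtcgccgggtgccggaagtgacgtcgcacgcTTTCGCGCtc
Sbsn: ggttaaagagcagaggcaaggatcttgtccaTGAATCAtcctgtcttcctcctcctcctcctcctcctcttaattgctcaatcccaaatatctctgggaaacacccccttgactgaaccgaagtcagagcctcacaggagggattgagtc
Sprr1b: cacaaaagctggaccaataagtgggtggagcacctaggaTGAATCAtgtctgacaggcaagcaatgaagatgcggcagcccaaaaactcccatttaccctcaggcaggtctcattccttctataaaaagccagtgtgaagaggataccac
The windows lie at chr2:69206214-69206363 (Spc25, minus strand), chr7:122159285-122159434 (Plk1, plus strand), chr13:100786487-100786636 (Ccnb1, minus strand), chr1:128359706-128359855 (Mcm6, minus strand), chr5:151651209-151651358 (Rfc3, minus strand), chr7:30751321-30751470 (Sbsn, plus strand) and chr3:92438780-92438929 (Sprr1b, minus strand). In Mcm6 the first capital run holds 2 overlapping E2F matches, 1 on each strand. All 7 were chosen for a match in the window, by order of p among list members with a single promoter in the RefSeq table. Members without a match were passed over. The stretches marked as AP-1 in Sbsn and Sprr1b both read TGAATCA. They are called AP-1 only by the loose search letters TGANTCA, in which N is any base. A match in a window describes its letters and is no measure of binding.

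The same letters were counted on both strands in the 250 bases before the start, for members with a promoter in the RefSeq table and for all 27025 genes in it. CCAAT occurred in 30 of 42 mitosis genes (71.4%) and 24 of 39 replication genes (61.5%), against 37.5% of all genes. The E2F letters TTTGGCGC, TTTCCCGC, TTTCGCGC or TTTGCCGC occurred in 9 of 39 replication genes (23.1%) and 3 of 42 mitosis genes (7.14%), against 2.16% of all genes. The element TTTGAA, the core of the cell cycle homology region of G2/M genes, was in 15 of 42 mitosis genes (35.7%), against 18.3% of all genes. AP-1 letters (TGANTCA) were in 5 of 16 suprabasal genes (31.2%) and 13 of 43 cornified envelope genes (30.2%), in 0 mitosis or replication genes, and in 7.82% of all genes. Other lists did not divide so clearly. The AP-1 letters were in 22.7% of S100, stefin and serpin genes, 13% of barrier lipid genes, 12.5% of tight junction genes and 8.0% of fate factors. CCAAT was in 50% of tight junction genes, 48.0% of fate factors and 39.5% of cornified envelope genes, and TTTGAA in 25% of suprabasal and 15.4% of replication genes.

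Other parts of the cell cycle machinery moved less. Of 21 genes of G1 cyclins, E2F factors and their partners 20 were higher, 6 in every pair, with a median of 0.20. In edgeR 0 passed with 10 or 15 libraries, DESeq2 called 2, and 5 stood under 0.05 before adjustment. Rbl1, which encodes the pocket protein p107, had the smallest p (log2 0.54, adjusted p = 0.179). Of 28 cell cycle inhibitors and p53 targets 19 were lower, 7 in every pair (7.02% of all genes), with a median of -0.40, and 2 passed lower with all 15 libraries. These were Cdkn2b, which encodes the CDK inhibitor p15, and Ovol1. Cdkn2b had 38.4, 44.2, 28.5, 52.4 and 38.5 CPM in a6-high libraries, against 85.7, 148, 67.4, 112 and 53.6 CPM in a6-low libraries (log2 -1.14 ± 0.19 SE, adjusted p = 0.0767, and 0.0195 with all 15). The groups did not overlap. Btg2, an antiproliferative p53 target, was lower in every pair (log2 -0.45, adjusted p = 0.247). Of 30 genes of ribosome biogenesis 20 were higher, 2 in every pair, with a median of 0.04. The pseudouridine synthase gene Dkc1, with a log2 fold change of 0.32, did not pass (adjusted p = 0.288, and 0.124 with all 15).

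**Figure D3:**
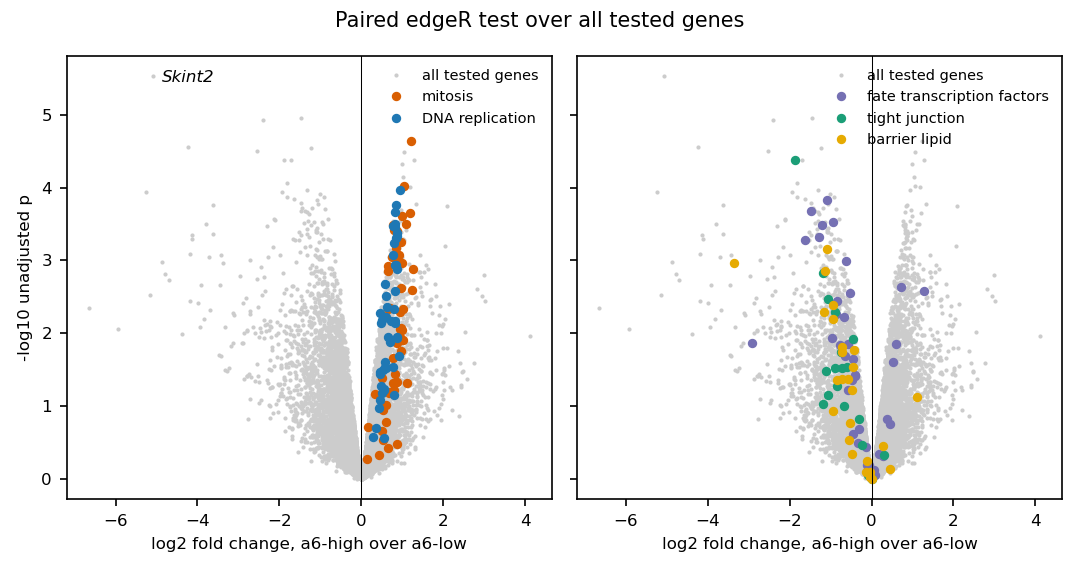
The log2 fold change (a6-high over a6-low) and the -log10 of the unadjusted p of the 14084 tested genes in the paired edgeR fit of 10 libraries. Mitosis and replication genes (left) lie right of 0, and most fate transcription factors, tight junction and barrier lipid genes (right) lie left of it. Skint2 alone passed the adjusted threshold.

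Transcription factors of keratinocyte fate were mostly lower in a6-high cells. Of 38 tested 27 were lower, 12 of them in every pair (7.02% of all genes) and 6 without overlap (0.916% of all genes), with a median of -0.45. In edgeR 9 passed lower and 1 higher with all 15 libraries and 0 with 10, where 24 had an unadjusted p under 0.05. DESeq2 on the 10 libraries called 13 lower and 2 higher. Ovol1, a zinc finger repressor that acts at the exit of keratinocytes from the cycle, had 410, 262, 230, 404 and 169 CPM in a6-high libraries, against 910, 515, 571, 601 and 454 CPM in a6-low libraries. The highest a6-high library lay below the lowest a6-low library (log2 -1.09 ± 0.16 SE, adjusted p = 0.0757, and 0.0210 with all 15). Zfp750, a differentiation factor that acts downstream of p63, had 172, 58.8, 25.5, 118 and 54.4 CPM in a6-high libraries, against 403, 140, 143, 220 and 162 CPM in a6-low libraries (log2 -1.48 ± 0.23 SE, adjusted p = 0.0757, and 0.0232 with all 15). It was lower in each pair, though KO 1 was high in both sorts. The grainyhead-like factors of barrier formation, Grhl1 (log2 -0.95) and Grhl3 (-1.28), the CCAAT enhancer binding factor gene Cebpa (-1.22) and Prdm1 (-1.62), which encodes the repressor Blimp1, each had an adjusted p of 0.0242 with all 15 libraries. Klf4, a factor required for the skin barrier in mice, was at 107 to 130 CPM in a6-high and 137 to 210 CPM in a6-low libraries without overlap (log2 -0.63, 0.0383 with all 15). Id2, an inhibitor of helix-loop-helix factors, was the factor that passed higher with all 15 (log2 1.27, adjusted p = 0.0397), with 150 CPM in KO 2 and 27.8 to 46.5 CPM in the other a6-high libraries, and 16.7 to 25.4 CPM in a6-low libraries. Grhl3, Prdm1, Klf4 and Id2 were chosen after their values were seen.

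Mxd1, which encodes a Max-binding antagonist of Myc found in differentiating keratinocytes, had 42.9, 25.2, 38.9, 43.6 and 46.1 CPM in a6-high libraries, against 143, 114, 82.1, 81.9 and 77.3 CPM in a6-low libraries. The groups did not overlap (log2 -1.33 ± 0.23 SE, adjusted p = 0.0788, and 0.0195 with all 15). Its relative Mxd3, which in mice is expressed in S phase cells, ran the other way in all 5 pairs, at 8.44 to 14.3 CPM in a6-high and 2.46 to 9.45 CPM in a6-low libraries (log2 0.99, adjusted p = 0.159). Over the 13 genes of the Myc and Max network the median was -0.05, with 5 higher and 8 lower.

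**Figure D4:**
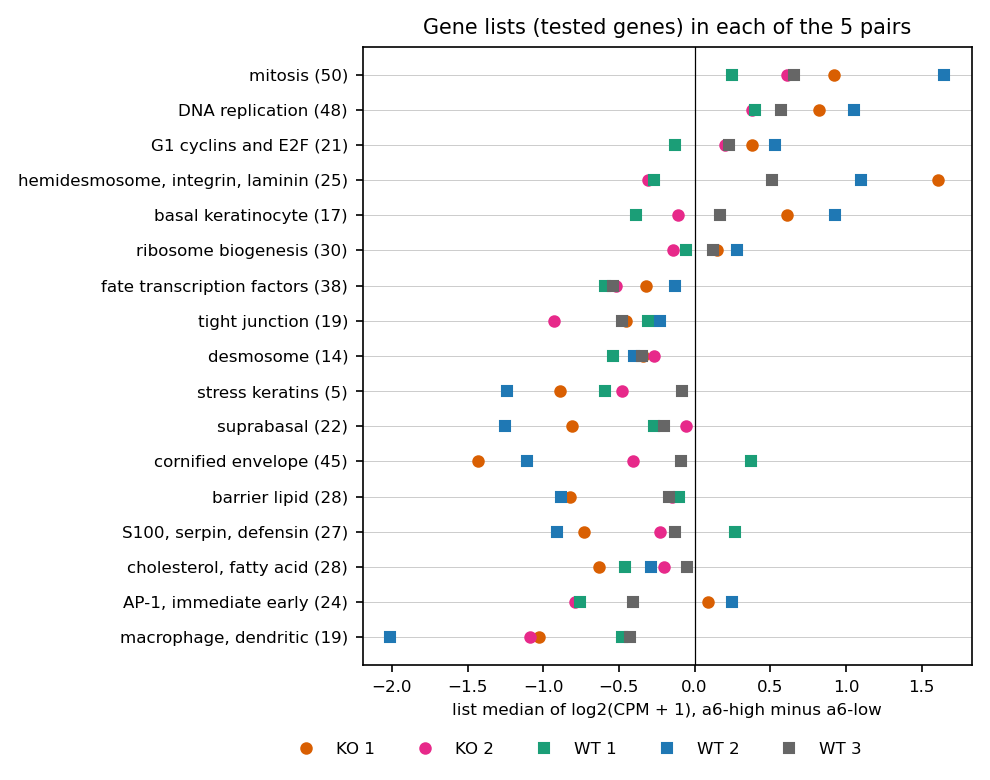
Median over the tested genes of 17 lists (number in brackets) of the a6-high minus a6-low difference in log2(CPM + 1), 1 point per pair. Mitosis and replication lie right of 0 and fate factors, tight junction and desmosome left of 0 in all 5 pairs, while hemidesmosome genes are positive in KO 1, WT 2 and WT 3 and negative in KO 2 and WT 1.

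Genes of cell junctions were lower in a6-high cells. Of 19 tight junction genes 18 were lower, 11 in every pair (7.02% of all genes), with a median of -0.75, and the pair medians were -0.45, -0.93, -0.31, -0.23 and -0.48. Cldn1, the claudin gene whose loss opens the epidermal barrier in mice, had 66.5, 58.1, 19.9, 71.5 and 16.5 CPM in a6-high libraries, against 353, 139, 92.1, 164 and 83.9 CPM in a6-low libraries. The groups did not overlap (log2 -1.88 ± 0.23 SE, adjusted p = 0.0529, and 0.0279 with all 15). Crb3, a polarity gene of apical membranes, was also without overlap, at 15.4 to 41.7 CPM in a6-high and 49.1 to 64.9 CPM in a6-low libraries (log2 -1.07, adjusted p = 0.138, and 0.0422 with all 15). The occludin gene Ocln had a log2 fold change of -1.18 and Marveld2, which encodes tricellulin, of -0.88. Neither passed in edgeR with 10 or 15 libraries, and DESeq2 called both, at adjusted p-values of 0.000863 and 0.0161. Of 14 desmosome genes 13 were lower, 5 in every pair (7.02% of all genes), with a median of -0.38. Dsg1b, a desmoglein gene of upper layers, passed with all 15 libraries (log2 -0.70, adjusted p = 0.0242), and the plakoglobin gene Jup did not (log2 -0.49, adjusted p = 0.0842). Cdh1, the E-cadherin gene, was lower in every pair with a log2 fold change of -0.79 (adjusted p = 0.181).

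Keratins of the stressed and tumour epidermis were mostly lower in a6-high cells. Of 5 such genes 4 were lower in every pair (7.02% of all genes) and 1 had a higher fitted level. The median was -0.66, and 2 passed with all 15 libraries. Krt6a, counted among the 4, was nearly level in WT 2 (3654 CPM in a6-high, 3678 CPM in a6-low) and WT 3 (5283 and 5330 CPM). Krt17 had 3668, 4498, 2309, 2313 and 2789 CPM in a6-high libraries, against 8874, 6282, 5012, 6723 and 5887 CPM in a6-low libraries. No a6-high value reached an a6-low value (log2 -1.1 ± 0.19 SE, adjusted p = 0.0788, and 0.0419 with all 15). Krt16 was at 1970 to 4821 CPM in a6-high and 4550 to 9815 CPM in a6-low libraries (log2 -0.97, adjusted p = 0.121, and 0.0432 with all 15). Krt6b (log2 -0.66) and Krt6a (-0.35) did not pass in edgeR with 10 or 15 libraries, and DESeq2 called Krt6b (adjusted p = 0.0399) but not Krt6a (adjusted p = 0.345). Keratin genes share sequence with relatives and pseudogenes, so counts of Krt6a, Krt6b, Krt16 and Krt17 may miss shared reads.

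Genes of adhesion to the basement membrane, which include the sort marker, split the pairs. Of 25 hemidesmosome, integrin and laminin genes 20 were higher in a6-high cells and 3 were so in every pair (8.1% of all genes), with a median of 0.73. The pair medians were 1.61, -0.31, -0.27, 1.1 and 0.51, positive in KO 1, WT 2 and WT 3 and negative in KO 2 and WT 1. In edgeR 0 members passed with 10 or 15 libraries. An unadjusted p under 0.05 was found for 4 of 25, near the 14.6% of all genes. DESeq2 called Itga3, Fermt1, Col7a1 and Itgb4 higher, at adjusted p-values of 0.0189 to 0.0432. Itgb4, the partner of Itga6, had 150, 174, 150, 180 and 168 CPM in a6-high libraries, against 18.1, 175, 146, 51.0 and 81.6 CPM in a6-low libraries (log2 1.16 ± 0.45 SE, adjusted p = 0.293). The a6-low values of KO 2 and WT 1 again equalled the a6-high level, as they did for Itga6. The genes with 1 direction in all pairs were Fermt1, the integrin activator kindlin-1 (log2 0.73), Itga3, the alpha subunit of another laminin receptor (1.17), and Col7a1, the collagen of anchoring fibrils (1.19), with adjusted p-values of 0.139, 0.225 and 0.243. For Itga3 the difference was small in KO 2, at 183 CPM in a6-high and 166 CPM in a6-low cells, and large in KO 1, at 126 CPM in a6-high and 18.5 CPM in a6-low cells.

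Basal keratinocyte genes behaved in part alike. Of 17 tested 12 were higher, 4 in every pair, with a median of 0.44 and pair medians of 0.61, -0.11, -0.39, 0.93 and 0.17. Passing higher with all 15 libraries were Cav2 and Wnt4. Cav2, the caveolin-2 gene, had 396, 497, 616, 477 and 566 CPM in a6-high libraries, against 268, 324, 398, 229 and 288 CPM in a6-low libraries (log2 0.77 ± 0.14 SE, adjusted p = 0.0822, and 0.0270 with all 15). Wnt4, a Wnt ligand gene, had 248, 172, 432, 307 and 354 CPM in a6-high libraries, against 104, 143, 211, 144 and 185 CPM in a6-low libraries (log2 0.92 ± 0.17 SE, adjusted p = 0.0901, and 0.0301 with all 15). Both were higher in all 5 pairs, with overlapping groups. Krt5 had 12850, 9758, 7172, 13530 and 7756 CPM in a6-high libraries and 3139, 11370, 13160, 2443 and 4505 CPM in a6-low libraries, so KO 2 and WT 1 had less Krt5 in the a6-high library. Its log2 fold change was 0.84 ± 0.51 SE (adjusted p = 0.519). Krt14, its partner keratin, was higher in every pair (log2 0.44, adjusted p = 0.345). Sox9, a follicle stem cell factor gene, was lower in every pair (log2 -0.80, adjusted p = 0.163), with 411 CPM in a6-high and 944 CPM in a6-low cells of KO 2.

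Suprabasal and cornified genes were lower in a6-high cells mainly in KO 1 and WT 2. Of 22 suprabasal genes tested 20 were lower and 4 were so in every pair (7.02% of all genes), with a median of -0.51 and pair medians of -0.81, -0.06, -0.27, -1.25 and -0.20. Krt10, a keratin gene of the spinous layer, had 4442, 2644, 1252, 3515 and 2356 CPM in a6-high libraries, against 8575, 1837, 2848, 12360 and 5793 CPM in a6-low libraries. It was lower in a6-high cells of 4 pairs and higher in KO 2 (log2 -0.96 ± 0.32 SE, adjusted p = 0.228), and its partner Krt1 followed the same pattern (log2 -1.16, adjusted p = 0.146). Krt79, a keratin gene of the sebaceous duct and upper follicle, had 6.18, 8.99, 9.13, 2.16 and 5.46 CPM in a6-high libraries, against 131, 36.9, 110, 410 and 77.1 CPM in a6-low libraries. Here all pairs ran alike and the groups did not overlap (log2 -4.14 ± 0.72 SE, adjusted p = 0.0788, and 0.0541 with all 15). Sbsn, the suprabasin gene of the upper epidermis, was slightly lower in every pair (log2 -0.42, adjusted p = 0.279).

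Of 45 cornified envelope genes tested, of 51 in the tables, 37 were lower, 8 in every pair, with a median of -0.70. The pair medians were -1.43, -0.41, 0.37, -1.11 and -0.09, and WT 1 went against the rest. Only Ppl, the envelope protein periplakin, passed lower with all 15 libraries (log2 -0.64, adjusted p = 0.0485). Sprr1b, an envelope precursor, had 566, 136, 495, 103 and 536 CPM in a6-high libraries, against 1286, 282, 574, 463 and 626 CPM in a6-low libraries (log2 -0.96 ± 0.29 SE, adjusted p = 0.194). Of 28 barrier lipid genes 24 were lower, 9 in every pair (7.02% of all genes), with a median of -0.51 and 4 calls with all 15 libraries. Abca12, the lipid transporter of lamellar granules, had 18.9, 8.07, 12.4, 7.58 and 12.1 CPM in a6-high libraries, against 46.5, 13.6, 22.6, 26.9 and 20.5 CPM in a6-low libraries (log2 -1.1 ± 0.20 SE, adjusted p = 0.0907, and 0.0195 with all 15). The lipoxygenase gene Alox12e (log2 -3.37) and the fatty acid hydroxylase gene Cyp4f39 (-1.13) passed with all 15 at adjusted p-values of 0.0439 and 0.0253, and the triglyceride synthesis gene Dgat2 (-0.94) did not (0.0566).

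**Figure D5:**
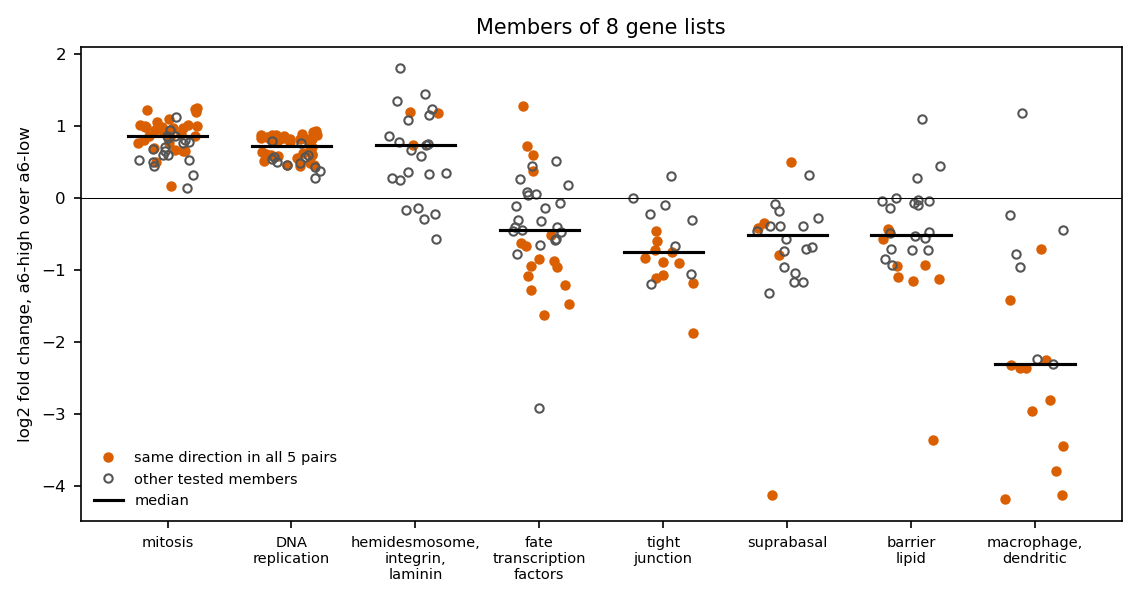
The log2 fold change (a6-high over a6-low) of each tested member of 8 gene lists, with the list median as a bar. Filled points are members with 1 direction in all 5 pairs, which make up most of the replication list and few of the hemidesmosome and suprabasal lists.

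Some genes of antimicrobial and protease inhibitor proteins were much lower in a6-high cells, while others of their list were higher. Of 27 S100, stefin, serpin and defensin genes 20 were lower, 6 in every pair, and 7 higher, with a median of -0.46, and 4 passed lower with all 15 libraries. Serpinb3a, a serpin of squamous epithelium, had 53.7, 19.9, 6.16, 45.6 and 13.3 CPM in a6-high libraries, against 443, 51.8, 29.0, 263 and 90.4 CPM in a6-low libraries. Each pair was lower, with KO 1 and WT 2 highest in both sorts (log2 -2.40 ± 0.25 SE, adjusted p = 0.0529, and 0.00588 with all 15). Its neighbour Serpinb3d (log2 -2.73) passed at 0.0257. Both genes belong to a cluster of close copies, and reads shared among them were not counted. Slpi, the secretory leukocyte protease inhibitor gene, had 410, 188, 525, 101 and 534 CPM in a6-high libraries, against 4757, 1104, 747, 1441 and 1685 CPM in a6-low libraries, without overlap (log2 -2.44 ± 0.50 SE, adjusted p = 0.110, and 0.0378 with all 15).

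Signalling genes showed few calls in edgeR. Of 24 AP-1 and immediate early genes 21 were lower with a median of -0.36, yet only 2 in every pair, since the pair medians were 0.09, -0.79, -0.76, 0.25 and -0.41. Fosl2, an AP-1 subunit of the Fos family, had 28.2, 26.6, 21.2, 35 and 21.9 CPM in a6-high libraries, against 44.9, 63.2, 47.2, 63.2 and 49.4 CPM in a6-low libraries. It was the member whose groups did not overlap (log2 -1.02 ± 0.15 SE, adjusted p = 0.0757, and 0.00588 with all 15). Egr2, a zinc finger factor gene of the early growth response family, also passed with all 15 (log2 -1.38, adjusted p = 0.0297). In the EGF receptor and ERK list 18 of 29 were lower, 5 in every pair, with a median of -0.42. The ligand gene Ereg, for epiregulin, passed with all 15 (log2 -1.31, adjusted p = 0.0439), and the ERK phosphatase gene Dusp4 (-1.23) and the ERK target Phlda1 (-0.83) did not, at 0.0590 and 0.0563. Of 25 Notch genes 18 were lower with a median of -0.25, 0 calls in edgeR and 5 at an unadjusted p under 0.05 (14.6% of all genes). The receptor gene Notch3, with a log2 fold change of -0.90, was the call of DESeq2 (adjusted p = 0.0257), and Notch2 had -0.63. Of 30 Wnt and hedgehog genes 16 were higher and 14 lower, and Wnt4 was the only call of edgeR with all 15. Of 26 TGF-beta and BMP genes 14 were higher and 12 lower, with 0 calls in edgeR. Here 4 stood at an unadjusted p under 0.05 (14.6% of all genes), and DESeq2 made 2 calls (5.71% of all genes), 1 in each direction.

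Genes of invasion and of the tumour stroma were mixed. Snai2, the repressor Slug of basal and migrating keratinocytes, had 106, 155, 84.3, 86.6 and 76.9 CPM in a6-high libraries, against 30.6, 47.2, 70.6, 23.7 and 49.9 CPM in a6-low libraries. Every a6-high library exceeded every a6-low library (log2 1.25 ± 0.27 SE, adjusted p = 0.120, and 0.0383 with all 15). In the same list of 15 genes Vim passed in the other direction with all 15 libraries. Esrp2, an epithelial splicing regulator, had a log2 fold change of -0.61 (adjusted p = 0.121, and 0.0989 with all 15). Of 21 matrix and matricellular genes 14 were higher with a median of 0.59, while the pair medians were 1.82, -0.10, -0.24, 1.02 and 0.02. Sparc, a matricellular protein gene, was higher in every pair (log2 1.07, adjusted p = 0.177). Ecm1 had a log2 fold change of 0.84 (adjusted p = 0.128), with 96.2 CPM in a6-high and 96.1 CPM in a6-low cells of KO 2. Of 31 protease genes 10 were higher and 21 lower, and the stromelysin gene Mmp3 was at 17.2 to 150 CPM in a6-high and 0.112 to 48.7 CPM in a6-low libraries (log2 2.76 ± 1.0 SE, adjusted p = 0.267). Among 24 regulators of tumour stem cells 14 were lower, with a median of -0.23, and Klf5, a factor of proliferating epithelium, was lower without overlap (log2 -0.67, 0.0490 with all 15).

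Metabolic genes were mixed, apart from those of lipid synthesis, which were mostly lower. Of 30 glycolysis genes 19 were higher and 11 lower, with a median of 0.13. The kinase gene Pdk3, which inhibits pyruvate dehydrogenase, was the call with all 15 libraries, at 44.4 to 65.8 CPM in a6-high and 29.9 to 47.1 CPM in a6-low libraries (log2 0.59, adjusted p = 0.0242). Its relative Pdk1 had 70.9 to 78.2 CPM in a6-high and 52.4 to 64.8 CPM in a6-low libraries, without overlap but with a log2 fold change of only 0.39 (adjusted p = 0.203, and 0.0763 with all 15). The hexokinase gene Hk2 was lower in every pair (log2 -0.66, adjusted p = 0.114), and the lactate transporter gene Slc16a3 was higher in 4 of 5 (1.31, 0.249). Of 21 hypoxia genes 10 were higher and 11 lower, with Car9 at log2 0.86 and Epas1 at -0.94. In edgeR 0 passed and 4 had an unadjusted p under 0.05 (14.6% of all genes), while DESeq2 called 3, among them Car9 (adjusted p = 0.0302) and Epas1 (adjusted p = 0.00751). Of 28 genes of the citric acid cycle and respiratory chain 11 were higher and 17 lower, with a range of -0.21 to 0.36. Of 28 cholesterol and fatty acid genes 26 were lower, 3 in every pair, with a median of -0.38, and the desaturase gene Scd1 passed with all 15 (log2 -0.77, adjusted p = 0.0403). Cyp51, of sterol synthesis, was lower in every pair (log2 -0.38, adjusted p = 0.279). Of 30 glutathione and antioxidant genes 21 were lower with a median of -0.12, among them the haem oxygenase gene Hmox1 (log2 -1.74) and the stress factor gene Nfe2l2 (-0.48), with adjusted p-values of 0.154 and 0.196.

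Secreted signals to immune cells were mostly lower in a6-high cells. Of 37 cytokine and chemokine genes 31 were lower, 6 in every pair (7.02% of all genes), with a median of -0.40. In edgeR 0 passed with 10 or 15 libraries and 12 had an unadjusted p under 0.05 (14.6% of all genes), while DESeq2 called 4 lower and 1 higher. Tslp, the thymic stromal lymphopoietin gene of type 2 inflammation, was an exception and the higher call of DESeq2, with 90.4, 606, 226, 540 and 267 CPM in a6-high libraries, against 26.2, 222, 106, 280 and 118 CPM in a6-low libraries. It was higher in each pair while its level ranged widely between pairs (log2 1.29 ± 0.16 SE, adjusted p = 0.0529, and 0.313 with all 15). Csf1, a growth factor gene for macrophages, had a log2 fold change of -1.07 and the chemokine gene Ccl20 of -1.07, with adjusted p-values of 0.0954 and 0.121. Of 30 interferon genes 11 were higher and 19 lower.

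Markers of macrophages and dendritic cells moved with the sort as well. Of 19 such markers tested, of 24 in the tables, 18 were lower in a6-high libraries, 12 in every pair (7.02% of all genes), with a median of -2.31, and 4 passed with all 15 libraries. Ptprc, of the same list, was not lower in any pair. Its levels were 2.62, 0.526, 0.652, 0.432 and 0 CPM in a6-high and 0.510, 0.457, 0.330, 0.223 and 0 CPM in a6-low libraries. The list summed to 272, 97.0, 140, 32.5 and 28.5 CPM in a6-high libraries, against 423, 373, 211, 209 and 70.9 CPM in a6-low libraries, and Cd74, H2-Aa, H2-Ab1 and H2-Eb1 made up 35% to 89.1% of it in a6-high and 59.4% to 87.1% in a6-low libraries. These are genes of class II antigen presentation, which keratinocytes can also express, and Cd74 was at 0.461 to 115 CPM in a6-high and 13.7 to 156 CPM in a6-low libraries. The complement gene C1qa had 0.682, 0.438, 0, 0.0959 and 0 CPM in a6-high libraries, against 6.74, 2.45, 0.566, 7.37 and 0.129 CPM in a6-low libraries (log2 -3.80 ± 0.63 SE, adjusted p = 0.0767, and 0.0242 with all 15). C1qb and C1qc, with log2 fold changes of -4.12 and -4.19, also passed with all 15, at adjusted p-values of 0.0334 and 0.0404. The remaining call of the list is not named here. Lyz2, at -2.97, did not pass with all 15 (adjusted p = 0.0648), and Lyz1 was at 0 in all 10 libraries. Of 35 lysosome and autophagy genes 24 were lower, 7 in every pair, with a median of -0.13. The lysosomal protease gene Ctsz, which macrophages also express, had a log2 fold change of -1.02. The part of these cells in the lower Vim, cytokine and lysosome levels was not tested.

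Melanocyte markers summed to 1.01 to 5.65 CPM in a6-high and 1.51 to 3.91 CPM in 4 a6-low libraries, but to 145 CPM in the a6-low library of KO 1. Tyrp1, a melanin synthesis gene, had 1.25 CPM in a6-high and 63.3 CPM in a6-low cells of KO 1, and 0.457 CPM or less in the other 8 libraries (log2 -5.25, adjusted p = 0.0757, and 0.149 with all 15). Endothelial markers summed to 6.91 to 15.3 CPM in a6-high and 7.36 to 37.1 CPM in a6-low libraries. In KO 1 the sum was larger in the a6-high library, at 8.87 against 7.36 CPM. Of 7 tested 5 were lower, 2 in every pair (7.02% of all genes), and 2 were higher. Plvap had a log2 fold change of -3.18, and Flt1, at -1.95, was lower in 4 of 5 pairs. Fibroblast and mural markers summed to 44.8 to 80.7 CPM in a6-high and 40.6 to 93.8 CPM in a6-low libraries. Acta2 and Cspg4 made up most of that sum in each library. Acta2 was at 26.9 to 64.4 CPM in a6-high and 30.2 to 83.5 CPM in a6-low libraries. The list members Col1a1, Col1a2, Col3a1 and Dcn were each at 1.92 CPM or less in every library. Lymphocyte markers summed to 2.11 to 6.05 CPM in a6-high and 2.01 to 3.97 CPM in a6-low libraries. Neutrophil and mast cell markers summed to 0.219 to 2.84 CPM in a6-high and 0.643 to 9.62 CPM in a6-low libraries. Muscle markers summed to 6.01 to 22.4 CPM in a6-high and 5.57 to 19.4 CPM in a6-low libraries, most of it from the single gene Mylpf in each library. Markers of red cells summed to 0.362 CPM or less in each library. Hair follicle and sebaceous genes were mixed, with 7 of 16 higher and 9 lower, as were the 7 sirtuin genes, with 4 higher and 3 lower. In edgeR 0 of either list passed, with 4 and 1 at an unadjusted p under 0.05, and DESeq2 called 2 of the first list and 0 of the second. The basal keratinocyte list summed to 56529 to 85346 CPM in a6-high and 36307 to 69700 CPM in a6-low libraries.

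The a6 difference was then taken within each genotype. In the 2 KO pairs 0 of 14084 genes passed (0%) in edgeR, DESeq2 called 76, and 784 stood under 0.05 before adjustment. In the 3 WT pairs 0 passed (0%) in edgeR, DESeq2 called 143, and 1120 stood under 0.05 before adjustment. The KO minus WT difference of the a6 effect also gave 0 genes (0%) in edgeR and 5 in DESeq2, with 194 under 0.05 before adjustment. Each of these counts is out of 14084 genes. If no gene differed, a share of about 0.05 would stand under 0.05 before adjustment by chance. The unadjusted count of the KO pairs was near that share. That of the WT pairs was above it, and that of the KO minus WT difference below it. Pairs of 1 genotype differed widely, with a correlation over genes of 0.10 between the KO pairs and of -0.24 between WT 1 and WT 2. A count of 0 in groups of this size does not show that KO and WT cells were alike.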

How the data were processed

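Cells were sorted by flow cytometry, and cDNA of their RNA was made with the SMART-Seq v4 Ultra Low Input kit, which keeps no strand, per the labels' protocols. The deposited files hold raw read counts of 37583 Ensembl genes, not normalized by the authors. The submitters' processing notes name the build mm9 and the tools HTSeq 0.6.0, STAR 2.3.0 and Picard 1.100, without an annotation release. The 5 entries per library that name no gene were left out: multiply aligned reads were 30.19% to 38.04% of the records, reads in no gene 2.61% to 5.13% and ambiguous reads 2.0% to 2.2%. Genes with near-identical copies and overlapping antisense genes are therefore uncertain. Symbols came from GENCODE M21 by gene identifier for 32860 genes (87.4%). No gene coordinates are given, and the promoter windows come from RefSeq on another build.

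The main test was edgeR 4.0.16 under R 4.3.3 (TMM, filterByExpr by the 4 groups, quasi-likelihood F test with the pair as a block), with Benjamini-Hochberg adjustment over the 14084 genes tested and a threshold of 0.05. The a6 effect within KO, within WT and their difference came from a nested fit. Standard errors were derived from the F statistic. CPM values are on TMM-scaled library sizes, and pair differences use log2(CPM + 1). Alternatives were DESeq2 1.42.0, its size factors, limma 3.58.1 (voom), 2 other filters on low counts, no block, all 15 libraries, and leaving out each pair. Chi-square per degree of freedom between libraries of a group was 39.7 to 308, so none repeats another. Nothing says that they are from separate animals, so p-values measure only the spread among these libraries, which may be technical, and an exact test of 1 gene over 5 pairs cannot go below a two-sided p of 0.0625. The labels give no batch.

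The comparison and the 44 gene lists were chosen with earlier results of these data known. The text names Sirt6, Itga6 and Cd34, genes past the threshold (up to 15 higher and 20 lower with an average log2 CPM of at least 2, which none met, or all where 5 or fewer pass) and, per list, up to 4 members with the smallest p. Krt5, Krt10, Krt14, Krt6a, Mcm6, Rfc3, Sbsn, Sprr1b, Lce3f, Ptprc and Cd74 were chosen after their values were seen. So were H2-Aa, H2-Ab1, H2-Eb1, Ddx3y, Lyz1, Acta2, Col1a1, Col1a2 and the genes said so in the text.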

Additional observations from a re-analysis of the deposited data

Results flagged for a closer look

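Of 156 sets of 5 pair differences in log2(CPM + 1), of named genes and list medians, 7 held a pair far from the others, where chance flags about 1 in 20 sets. Ccnb1 differed by 1.54 in WT 2 and by 0.69 to 0.90 in the other 4 pairs. Tyrp1 differed by -4.84 in KO 1 and by -0.48 to 0.00 elsewhere, and Dct, another melanocyte gene, by -4.49 in KO 1 and by -0.64 to 0.24 elsewhere. The median of the melanocyte list, which holds Tyrp1 and Dct, was -2.70 in KO 1 and -0.47 to 0.07 elsewhere. These 3 flags overlap and rest on the a6-low library of KO 1, so they are not 3 separate findings. Id2 differed by 2.68 in KO 2 and by 0.68 to 1.03 elsewhere. Ecm1 differed by 0.00 in KO 2 and by 0.86 to 1.16 elsewhere. The median of the sex-linked list was -0.12 in KO 2 and 0.00 elsewhere, since the Y-linked genes of that list were read only in KO 2 at more than trace level.

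Lce3f, a late cornified envelope gene, was lower in a6-high cells of both KO pairs and higher in those of all 3 WT pairs, with mean differences of -1.45 in KO and 1.26 in WT, a gap of -2.71. The gene was named after its values were seen and not by its p within its list, so this flag is no result of an open screen. Lce3f had 3.11 and 0.745 CPM in KO and 23.1, 0.528 and 0.769 CPM in WT a6-high libraries, and 13.4 and 2.74 CPM in KO and 2.08, 0.112 and 0.386 CPM in WT a6-low libraries. The difference between the genotypes did not pass the edgeR test over all genes (unadjusted p = 0.000825, adjusted p = 1), the levels of WT 2 and WT 3 were low, and Lce3 genes are close copies of each other.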

How the results depend on the processing

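The count of genes past the threshold was 1 over the pairs, and 1 with DESeq2 size factors in edgeR. It was 0 with a filter of 10 CPM in 5 libraries (7777 genes tested, without Skint2), 168 with no filter on low counts (24241 tested), 11 with limma voom, 192 with all 15 libraries and 804 with DESeq2. Leaving out 1 pair gave 0 to 4, and setting aside KO 2 and WT 1, chosen after seeing the data, gave 723. Of the 192 genes, 191 were also called by DESeq2, 105 without a filter, 10 by voom and 123 with the 2 pairs set aside. Without the replicate block the count was 0, and 1363 genes had a p under 0.05 before adjustment, against 2063 with it. The deviations of same-numbered libraries from their group means had a correlation of 0.468 in both KO pairs, which mirror each other, 0.455 in WT 3, 0.043 in WT 1 and -0.012 in WT 2, so the numbers are not shown to pair all libraries. Within a genotype the block changed no call. KO pairs gave 76 calls with DESeq2, 2 with all 15 libraries and 341 with the 2 pairs set aside. WT pairs gave 143 and 543, and the KO minus WT difference 5 and 7, with DESeq2 and with the 2 pairs set aside. Where 1 KO pair is left, it is assumed to vary like the WT pairs. The cause of these shifts was not tested. Of the values of 116 named genes under the alternatives, 1182 kept direction and call, 290 gained a call, 4 lost it (Skint2) and 10 changed sign. Those 10 were of Cd34 and Lce3f. Cd34 had a log2 fold change of -0.26 without the block, -0.11 with all 15 libraries, -0.11 with voom and -0.29 to 0.29 without 1 pair. Lce3f had -0.89 to 1.13 without 1 pair and -0.58 with KO 2 and WT 1 set aside. Depth limits Skint2, with 15 reads over the a6-high libraries, and the macrophage and melanocyte markers.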

Other observations

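Among genes outside the lists, 3 chosen after their values were seen were higher in a6-high cells of every pair and passed in the fit of all 15 libraries, though not in the fit of 10. Ntf3, the neurotrophin-3 gene, had 4.59, 9.16, 14.4, 12.5 and 9.84 CPM in a6-high libraries of KO 1, KO 2, WT 1, WT 2 and WT 3, against 0.474, 2.78, 3.82, 2.01 and 4.24 CPM in a6-low libraries. The groups did not overlap (log2 2.09 ± 0.32 SE, edgeR adjusted p = 0.0757, and 0.0404 with all 15). Ccn1, which encodes a matricellular target of YAP signalling, had 458, 683, 678, 727 and 695 CPM in a6-high libraries, against 66.4, 320, 351, 148 and 391 CPM in a6-low libraries. It too was without overlap (log2 1.58 ± 0.32 SE, adjusted p = 0.108, and 0.0243 with all 15). Spon2, which encodes a secreted protein of the spondin family, had 12.3, 8.64, 48.9, 20.3 and 50.7 CPM in a6-high libraries, against 0.364, 3.74, 21.0, 0.559 and 6.56 CPM in a6-low libraries (log2 2.82 ± 0.65 SE, adjusted p = 0.128, and 0.0470 with all 15). For Spon2 the groups overlapped, and the differences were smallest where the a6-low library had Itga6 at the a6-high level.

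Wnt3, a Wnt ligand gene, was higher in 4 of 5 pairs, at 18.2 to 67.8 CPM in a6-high and 1.71 to 29.4 CPM in a6-low libraries (log2 1.86 ± 0.62 SE, adjusted p = 0.233), and the growth factor gene Ptn in all 5 (log2 0.75, adjusted p = 0.183). Pglyrp3, a peptidoglycan recognition gene, was lower in all 5 (log2 -1.61, adjusted p = 0.153), as was Dsc1, a desmocollin gene of the upper epidermis, in 4 of 5 (log2 -1.04, adjusted p = 0.210).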
